A study of Mus musculus with 17 samples.

Results

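The regions described here are the H3K27ac peaks of control mouse epidermis that overlapped, or lay with their nearest edge within 1 kb of, the start or end of a protein-coding gene on GRCm38. H3K27ac is acetylation of lysine 27 of histone H3, and the rule used only the position of a peak and of the gene ends. Of 2140 control H3K27ac peaks, 2139 lay on placed chromosomes, and 773 of these (36.1%, 95% Wilson interval 34.1 to 38.2) met the rule. The other 1366 peaks lay farther from gene ends, 823 of them inside a gene and 543 outside genes. The intervals here cover counting error over peaks or genes only, not differences between animals.

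A gene start and a gene end cannot be told apart from the peak list alone, so the strand of a gene was taken from RefSeq promoter records, which covered 17492 of 21887 protein-coding genes and 688 of the 818 genes with a gene-end peak. A peak near the ends of 1 gene is called one-sided, and a peak near the ends of neighbouring genes is called shared. By this count 153 peaks (19.8%, 17.1 to 22.8) were shared, 2 of them by 3 genes, and 620 (80.2%, 77.3 to 82.9) were one-sided. Shared peaks touched 280 genes and one-sided peaks 545, with 7 genes in both sets. Over all protein-coding genes, 3.74% had a control H3K27ac peak at an end, which is the background for each gene group below. By strand, 3.72% of genes had a peak within 1 kb of the start and 0.286% within 1 kb of the end.

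H3K27ac is placed by the acetyltransferases p300 and CBP and is found on the nucleosomes that flank active promoters and enhancers, while the transcription start itself is typically low in nucleosomes. UTX, the product of Kdm6a, removes methyl groups from the same lysine and belongs to the COMPASS-like complexes that act at enhancers. Many housekeeping genes of mammals lie head to head with a neighbour, so that both are transcribed away from a short common promoter, often rich in CpG dinucleotides.

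The study used chromatin immunoprecipitation and sequencing on crosslinked cell suspensions of epidermis from female mice. Utx-deleted mice were Cre+; Utx fl/fl, with Cre driven by Krt14, and gave 3 H3K27ac, 3 UTX and 3 input libraries. Control mice were Cre-; Utx fl/fl, carried the same floxed alleles without Cre, and gave 2 labelled H3K27ac, 3 UTX and 3 input libraries, although the labels' protocols state 3 samples for each group. Ages are not given. Each antibody and genotype has 1 peak list, called on merged libraries, so no value below has a replicate error and no genotypes were tested against each other. Cells of the epidermis outside the Krt14 lineage keep Utx in this model.

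The sequences shown first are promoter bases of genes with wide one-sided start peaks, because they range from CpG-dense to CpG-free. They were taken in order of peak width from the genes whose promoter record begins at the annotated start. The peaks lie beside these bases: only the Skint1 run is partly under a control H3K27ac peak, by 87 bases, and the runs of Actg1, Klf4 and Nr1d1 are under none. Each run holds the 250 bases before the start, on the gene's own strand, from RefSeq on GRCm38.p6. They are Actg1 at chr11:120348496-120348745 on the minus strand, Skint1 at chr4:112006019-112006268 on the plus strand, Klf4 at chr4:55532476-55532725 on the minus strand and Nr1d1 at chr11:98775378-98775627 on the minus strand. Capitals mark matches to the short motifs spelled out with the motif counts.
Actg1: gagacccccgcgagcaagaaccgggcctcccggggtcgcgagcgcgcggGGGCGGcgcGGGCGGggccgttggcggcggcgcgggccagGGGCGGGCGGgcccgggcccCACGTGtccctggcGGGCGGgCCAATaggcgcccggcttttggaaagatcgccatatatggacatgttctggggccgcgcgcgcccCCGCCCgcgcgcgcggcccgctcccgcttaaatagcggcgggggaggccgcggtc
Skint1: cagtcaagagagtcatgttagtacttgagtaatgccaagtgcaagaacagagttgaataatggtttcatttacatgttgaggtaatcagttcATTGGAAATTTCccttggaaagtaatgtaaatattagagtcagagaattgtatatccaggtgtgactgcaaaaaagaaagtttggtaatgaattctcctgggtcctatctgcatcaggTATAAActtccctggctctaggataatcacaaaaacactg
Klf4: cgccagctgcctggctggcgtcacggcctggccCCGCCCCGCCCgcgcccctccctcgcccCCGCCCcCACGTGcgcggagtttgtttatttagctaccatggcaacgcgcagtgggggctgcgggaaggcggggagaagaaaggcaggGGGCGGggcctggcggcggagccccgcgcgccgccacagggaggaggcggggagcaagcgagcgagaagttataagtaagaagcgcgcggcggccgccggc
Nr1d1: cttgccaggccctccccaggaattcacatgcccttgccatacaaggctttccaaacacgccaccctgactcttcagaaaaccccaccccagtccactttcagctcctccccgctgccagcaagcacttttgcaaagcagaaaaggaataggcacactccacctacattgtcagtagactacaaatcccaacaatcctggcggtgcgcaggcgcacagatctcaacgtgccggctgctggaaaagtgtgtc
The Actg1 run held 43 CpG dinucleotides, 6 GC boxes, 1 E-box and 1 CCAAT box. The Klf4 run held 32 CpG, 4 GC boxes and 1 E-box. The Nr1d1 run held 7 CpG and no searched motif. The Skint1 run held 0 CpG, with a TATA box, and with a CCAAT box and a heat shock element that overlap by 1 base.

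The second set shows the bases that lie between head-to-head starts, because for these pairs the whole stretch between the starts is short. None of the 6 stretches is under a control H3K27ac peak, and each pair's widest peak lies to one side of both starts. All are written on the plus strand of GRCm38.p6, with the gene named first transcribed to the left and the gene named second to the right. They are H2-T22 and Gm6034 at chr17:36042743-36042960, Baz2b and Marchf7 at chr2:60209914-60209935, Ppp1r15a and Plekha4 at chr7:45526269-45526329, Drap1 and AI837181 at chr19:5424980-5425143, Rps6kb1 and Tubd1 at chr11:86544886-86544990, and Cnppd1 and Retreg2 at chr1:75142745-75142785.
H2-T22 and Gm6034: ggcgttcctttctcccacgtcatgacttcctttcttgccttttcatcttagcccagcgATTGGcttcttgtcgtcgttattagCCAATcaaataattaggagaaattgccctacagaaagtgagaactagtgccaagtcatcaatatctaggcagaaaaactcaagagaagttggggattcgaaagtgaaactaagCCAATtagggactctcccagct
Baz2b and Marchf7: acggcggcggccacttctgcgg
Ppp1r15a and Plekha4: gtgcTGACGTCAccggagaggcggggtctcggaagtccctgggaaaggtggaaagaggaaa
Drap1 and AI837181: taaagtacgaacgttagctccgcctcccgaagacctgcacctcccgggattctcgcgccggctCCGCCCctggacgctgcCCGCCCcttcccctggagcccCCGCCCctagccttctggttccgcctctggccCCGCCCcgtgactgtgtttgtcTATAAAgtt
Rps6kb1 and Tubd1: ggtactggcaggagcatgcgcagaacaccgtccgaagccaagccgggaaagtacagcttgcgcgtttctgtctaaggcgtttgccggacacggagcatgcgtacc
Cnppd1 and Retreg2: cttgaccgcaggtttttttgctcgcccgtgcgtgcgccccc
The stretch between Ppp1r15a and Plekha4 held a cyclic AMP response element (CRE). Ppp1r15a encodes a phosphatase subunit that restores translation after stress. The stretch between Drap1 and AI837181 held 4 GC boxes and a TATA box, and that between H2-T22 and Gm6034 held 3 CCAAT boxes. The other 3 stretches held none of the searched motifs.

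Gene-end peaks mostly stood beside starts and seldom on the start itself. Of 773 peaks, 63 (8.15%, 6.42 to 10.3) overlapped the gene end itself, 555 (71.8%, 68.5 to 74.9) lay within 500 bp of it, and the median gap was 297 bp (quartiles 124 and 545). Among the 518 one-sided peaks whose gene had a known strand, 492 (interval 92.8 to 96.6%) lay at the start, 23 at the end and 3 at both ends of a short gene. Because the rule counts distance from an edge, peaks on the ends of very short genes can lie anywhere in the gene.

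Among one-sided peaks, those on the gene side of the annotated start were more numerous than those upstream of it. Of the 495 one-sided peaks at starts of known strand, 281 (56.8%, 52.4 to 61.1) lay inside the gene, 189 (38.2%, 34.0 to 42.5) upstream and 25 (5.05%, 3.44 to 7.35) over the start. Upstream peaks that also lie near a neighbouring gene count as shared and are left out here. The annotated start is the outer one, and 10583 of 17492 promoter records begin exactly there. A gene-side peak can thus lie upstream of another start of its gene, and which start is in use was not tested. The peak centre had a median position of +238 bp. The gene-side peaks were centred at a median of +560 bp and the upstream peaks at -439.5 bp. The fullest 100 bp bins held 42 peaks each, from 200 to 300 bp inside the gene and from -500 to -400 bp upstream, while 15 centres lay within 100 bp of the start. Of the 650 genes with a peak at the start, 44 had a peak on each side of it. B2m, the light chain of MHC class I, had centres at -546 and +789 bp. Nr1d1, which encodes the clock repressor REV-ERB alpha, had centres at -653 and +747.5 bp. These genes carried a pair of peaks with the start between them.

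**Figure D1:**
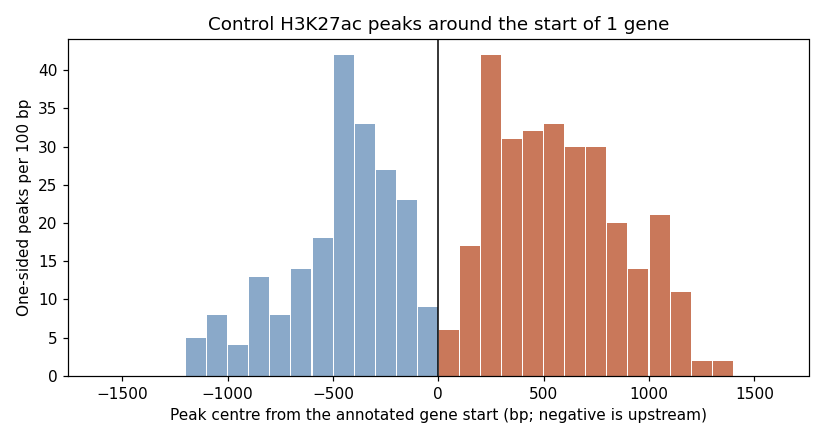
Number of one-sided control H3K27ac peaks per 100 bp by the distance of the peak centre from the annotated gene start, with negative values upstream (blue) and positive values on the gene side (orange). The 495 peaks form a group on either side of the start, with 42 peaks in the fullest bin of each and few centres at the start.

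Peaks at gene ends had about the width of peaks elsewhere. Their median width was 272 bp (quartiles 221 and 367), against 275 bp (227 and 371) for the other control peaks. Shared peaks had a median of 269 bp and one-sided peaks 274.5 bp. Peaks that overlapped the end had a median of 300 bp, against 271 bp for those beside it, and a wider peak reaches an end more often by construction. The next control peak lay at a median of 31467 bp from a gene-end peak and 3568 bp from the other peaks, and it lay within 5000 bp for 34.4% of gene-end peaks and 52.3% of the others. Fewer of the gene-end peaks had another peak close by.

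The 12 widest gene-end peaks lay at 11 genes. The widest, of 1171 bp, lay at Hcar2, a receptor for hydroxy-carboxylic acids, whose strand was not known. Zfp36, whose product binds AU-rich messenger RNAs and speeds their decay, had a peak of 985 bp at its end. Kmt2e, of the MLL family, had a peak of 972 bp and Mpzl3, a membrane protein gene in which mutation causes skin and hair defects in mouse, one of 913 bp, both at genes of unknown strand. Actg1, which encodes gamma-actin, had a peak of 967 bp. Skint1, which selects a T cell lineage of the mouse epidermis, had peaks of 926 and 912 bp. Jup, which encodes plakoglobin of the desmosome, had a peak of 844 bp, Klf4, a transcription factor of barrier formation, one of 842 bp and Ndel1, of the dynein pathway, one of 840 bp. G3bp1, a stress granule protein gene, had a peak of 836 bp and Nr1d1 one of 799 bp. The peaks at Actg1, Klf4, Ndel1, G3bp1 and Nr1d1 lay upstream of the start, the 844 bp peak at Jup lay inside the gene, and the 912 bp Skint1 peak covered the start.

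A few genes collected several peaks. Of the 818 genes, 723 had 1 gene-end peak, 86 had 2 and 9 had 3 or more. Sfn, which encodes 14-3-3 sigma of differentiating keratinocytes, had 5 peaks of 414, 406, 352, 337 and 317 bp over and around a gene of 1613 bp. Zfp36 had 4, of 985, 451, 267 and 208 bp, around a gene of 2445 bp. Atf4, a transcription factor of the integrated stress response, had 3, with centres at -454.5, +155 and +1113.5 bp. Wasf2, an actin regulator of the WAVE complex, had 3, of 621, 368 and 243 bp. Ppp1r15a and its head-to-head neighbour Plekha4 shared 3 peaks of 462, 308 and 282 bp. The translation factor gene Eif6 had 4 peaks, 3 near one end and 1 near the other. Otud7b, a deubiquitinase gene, and Mtmr11 had 4 each, and 3 of these were common to both. Peaks at both ends were found at 18 genes, among them Hcar2, Ly6d, Sik1, Zcchc8, Hyal1 and Tap1. Of these 18 genes, 7 had a single peak that lay within reach of both ends, at Hspb1, Pop7, H3c1, H4c1, H4c14, Trmt112 and Gm51460.

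Shared peaks lay mainly at the starts of head-to-head gene pairs. Of 113 shared peaks whose genes all had a known strand, 91 (80.5%, 72.3 to 86.8) lay at the starts of a head-to-head pair, 15 at the start of one gene and the end of another, 3 at starts on the same strand, 3 near more than 2 ends, and 1 at the ends of Rnf167 and the actin-binding gene Pfn1, which lie tail to tail. The 91 peaks belonged to 81 pairs. The distance between the starts had a median of 62 bp (quartiles -85.5 and 141.5), where a negative value means that the genes overlap at their starts. The remaining 40 shared peaks had a gene of unknown strand. Over all genes of known strand, 3.72% had a peak at the start and 0.286% at the end, so few shared peaks at 2 ends would be found in any case. How many close neighbouring gene ends of the annotation are head to head, relative to other arrangements, was not counted.

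**Figure D2:**
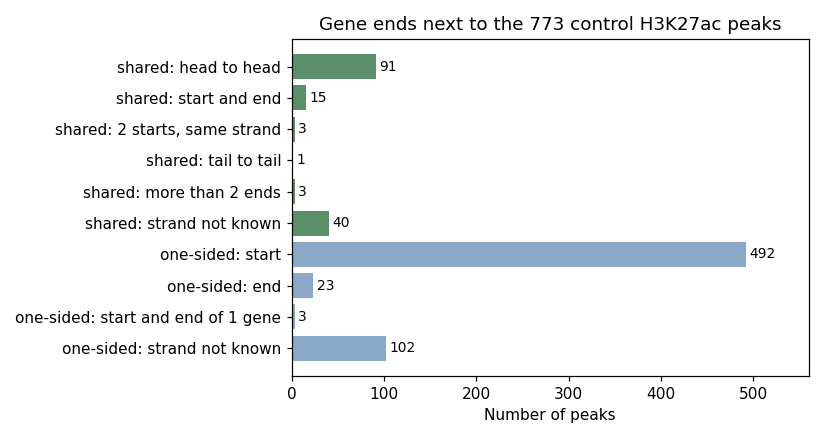
Number of gene-end control H3K27ac peaks by the gene ends they lie next to, with shared peaks in green above and one-sided peaks in blue below. Head-to-head starts hold 91 shared peaks and single starts 492 one-sided peaks, while 23 one-sided peaks lie at an end.

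Genes in head-to-head pairs had a start peak more often than other genes. The annotation holds 903 pairs with starts within 1 kb, and 79 (8.75%, 7.08 to 10.8) had a peak within 1 kb of both starts. Of the 1795 genes in such pairs, 161 (8.97%, 7.73 to 10.4) had a start peak, against 489 of 15697 genes outside them (3.12%, 2.86 to 3.40). The genes of a pair share most of their peaks and are not independent, so this interval is too narrow. Pairs made up 24.8% of the genes with a start peak and 10.3% of all genes of known strand. A gene in a pair can also reach the rule through a peak of its partner.

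Most head-to-head peaks lay to one side of both starts. The starts were a median of 62 bp apart (quartiles -85.5 and 141.5), and the narrowest gene-end peak was 199 bp. At many pairs no peak could therefore fit between the starts, so the low count there follows largely from the spacing. Of the 91 head-to-head peaks, 66 (72.5%, 62.6 to 80.6) lay on one side of both starts, 14 over one of the starts, 9 between the starts and 2 over both. The 744 bp peak over the starts of Fen1, a flap endonuclease of DNA replication, and Tmem258, a subunit of the oligosaccharyltransferase complex, was the second widest shared peak. Hadha and Hadhb, which encode the subunits of the mitochondrial trifunctional protein of fatty acid oxidation, shared a peak of 566 bp over the Hadha start. Prune1 and Mindy1 shared 584 bp and Rbm18 and Mrrf 523 bp, each in the overlap of the paired genes. For H2-T22 and Gm6034, the 572 bp peak began 11 bp inside Gm6034. For Baz2b and Marchf7, whose starts lie 23 bp apart, the 470 bp peak lay 754 bp into Marchf7.

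The other wide shared peaks were of mixed arrangement. Zwilch, of the mitotic checkpoint, and the ribosomal protein gene Rpl4 shared the widest, 783 bp. Zc3h10 and Rpl41 shared 663 bp with the Zc3h10 start and the Rpl41 end, 710 and 812 bp away. Itpkc and Coq8b shared 655 bp. Gpatch3 and Gpn2 shared 554 bp over the Gpatch3 end, with the Gpn2 start 106 bp away. Srcap, a chromatin remodeller gene, and Tmem265 shared 553 bp. Prnp, the prion protein gene, and Prn shared 548 bp, and both begin at the same place, so that this peak counts as shared only through the annotation.

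Genes with a shared peak were shorter than genes with one-sided peaks only. Their median length was 12425 bp, against 18285.5 bp, and the 21069 genes with no gene-end peak had a median of 17199 bp. An annotated long non-coding RNA gene ended or began within 1 kb of 4 of 153 shared peaks (2.61%, 1.02 to 6.53) and of 80 of 620 one-sided peaks (12.9%, 10.5 to 15.8). Over all gene-end peaks the share was 10.9%, and over the other control peaks 10.6%. By rule a shared peak has a second protein-coding gene close by. Whether this alone gives the lower share and the shorter genes was not tested.

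A further 23 one-sided peaks lay at an end only. Besides the peaks at Zfp36 and Sfn, Krt12 had a peak of 485 bp over its end and the suprabasal keratin gene Krt10 one of 208 bp. The small GTPase gene Rhov had one of 343 bp. Junb, an AP-1 subunit gene, had one of 213 bp, and Id3, an inhibitor of helix-loop-helix factors, one of 210 bp. Mcl1, a survival factor gene, and Nfkbia, which encodes the NF-kB inhibitor I kappa B alpha, had 203 bp each. None of the 23 had a start in the RefSeq promoter records within 1 kb (0 of 23, which allows a share of up to 13.0%). A peak within 1 kb of the outer start of a protein-coding gene is not in this class. Only other transcript starts could have counted, so this 0 is largely fixed by the rule. The promoter records also do not hold every gene, and the Tmem107 peak of 215 bp lay 11 bp from the snoRNA gene Snord118. Zfp36 and Sfn span 2445 and 1613 bp, so that the peaks at their ends are also a few kilobases or less from the start.

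By function, 24 of 32 gene lists had a larger share of members with a gene-end peak than the 3.74% of all genes. Over the 1373 distinct genes of the lists, 174 (12.7%) had one. The lists name well-studied genes and were chosen with earlier results of these data known. Their shares are descriptions without a test, and several of the 24 have intervals that include 3.74%. The background also holds 1110 olfactory and 355 vomeronasal receptor genes, of which 0 had a gene-end peak. Of the 818 genes, 603 were in no list and in no named symbol class.

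**Figure D3:**
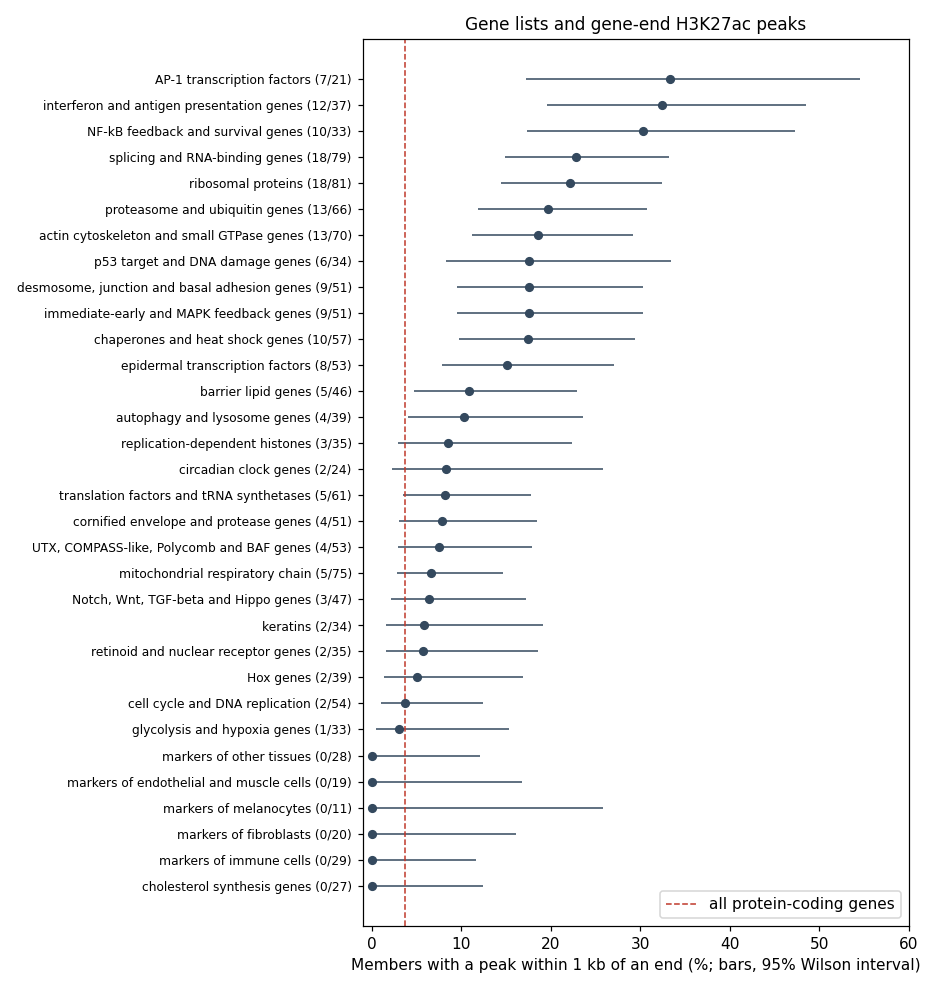
Percent of each gene list's members with a control H3K27ac peak within 1 kb of an end (points), with 95% Wilson intervals (bars) and the number of members with a peak over all members; the dashed line marks the 3.74% of all protein-coding genes. AP-1 factors stand highest with 7 of 21, and the lists of other cell types and tissues stand at 0.

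The AP-1 and NF-kB lists were among those with the highest shares. Of 21 AP-1 and related bZIP factors 7 (33.3%, 17.2 to 54.6) had a gene-end peak, and all 7 were one-sided: Mafk (476 bp), Atf4 (458 bp), Fosl2 (422 bp), Jun (386 bp), Fosl1 (334 bp), Fos (307 bp) and Junb. The Fos peak covered the start, and the Jun peak was centred upstream, at -803.5 bp. Of 33 NF-kB feedback and survival genes 10 (30.3%, 17.4 to 47.3) had one, led by the NF-kB subunit gene Rela (424 bp), the ubiquitin ligase gene Birc3 (399 bp), Tnfaip3, which encodes the inhibitor A20 (399 bp), and Cflar, an inhibitor of caspase-8 (374 bp). Of 51 immediate-early and MAPK feedback genes 9 (17.6%) had one, led by Zfp36, the clock gene Per1 (387 bp), the growth suppressor gene Btg1 (380 bp) and the kinase gene Sik1 (369 bp). Of 34 p53 target and DNA damage genes 6 had one (17.6%), led by Sesn2, an inhibitor of mTORC1 signalling (784 bp). Trp53 itself shared a peak of 285 bp with Wrap53, its head-to-head neighbour.

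Gene-end peaks were spread unevenly over the lists of keratinocyte genes. Of 53 epidermal transcription factors 8 (15.1%, 7.85 to 27.1) had a gene-end peak, with 842 bp at Klf4, 482 bp at Tfap2a, 365 bp at Grhl3 and 307 bp at Ehf. Of 51 desmosome, junction and basal adhesion genes 9 (17.6%, 9.57 to 30.3) had one and 0 of these was shared, with 844 bp at Jup, 594 bp at the plakophilin gene Pkp3, 372 bp at Dsp and 334 bp at the junctional adhesion gene F11r. Of 46 barrier lipid genes 5 had one, with 605 bp at the lipid transporter gene Abca12, 568 bp at the desaturase gene Scd1, 472 bp at the lipoxygenase gene Aloxe3 and 335 bp at the lipase gene Lipm. Of 51 cornified envelope and protease genes 4 had one, with 643 bp at S100a11, 348 bp at Anxa1, 301 bp at S100a16 and 263 bp at S100a14. Of 34 keratin genes 2 had one, both at the end. Of the 3 Notch, Wnt, TGF-beta and Hippo genes with a peak among 47, Tead3, a DNA-binding partner of YAP, had the widest (751 bp), followed by Amotl1 (370 bp) and Tgif1 (260 bp). The nuclear receptor genes Rarg (366 bp) and Vdr (301 bp) had one of the 35 of their list.

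As a check of the tissue label, 6 of 14 keratinocyte markers had a gene-end peak: Sfn, Dsp, Jup, Col17a1, Cdh1 and Krt10. Krt5, Krt14, Krt1, Trp63, Dsg3, Itga6, Itgb4 and Perp had none. The list holds 2140 peaks in all and its depth is unknown. A missing peak, here or in any gene list, therefore does not show that a promoter lacks H3K27ac. Of 107 markers of immune cells, fibroblasts, melanocytes, endothelial and muscle cells and other tissues 0 had one, which allows a share of up to 2.80%. This limit is not far under the 3.74% of all genes.

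Housekeeping groups were also marked, by shared and by one-sided peaks. Over all genes with a gene-end peak, 280 of 818 had a shared one. Of 79 splicing and RNA-binding genes 18 (22.8%, 14.9 to 33.2) had a gene-end peak, 7 of them a shared one. Their widest peaks lay at Hnrnpl (542 bp), the helicase gene Ddx5 (493 bp, shared with the start of Polg2), Rbm39 (438 bp) and Hnrnpa3 (419 bp). Of 81 ribosomal protein genes 18 (22.2%, 14.5 to 32.4) had one, with 783 bp at Rpl4, 663 bp at Rpl41 and 411 bp at Rps3. In 6 of the 18 it was shared, Rpl4 and Rpl41 included. Of 66 proteasome and ubiquitin genes 13 (19.7%, 11.9 to 30.8) had one, among them Rbx1 (430 bp), Psmd8 (338 bp) and Ube2k (326 bp). Of 57 chaperone genes 10 (17.5%) had one, led by Hspa8 (514 bp), Xbp1, the factor of the unfolded protein response (474 bp), Dnajb2 (427 bp) and Hspa1b (420 bp). Hspa1b has a near-identical neighbour and ribosomal protein genes have many processed copies, so reads there may be placed on the wrong copy. All 4 autophagy and lysosome genes with a peak among 39 had a shared one: Atg13 (375 bp), Nbr1, which shares 300 bp with Brca1, Gabarap (266 bp) and Tpp1 (217 bp). Of 78 mitochondrial ribosomal protein genes 8 had one (10.3%), 7 of them shared.

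Actin and antigen presentation genes stood above the background as well. Of 70 actin cytoskeleton and small GTPase genes 13 (18.6%, 11.2 to 29.2) had a gene-end peak, with 967 bp at Actg1, 622 bp at the tropomyosin gene Tpm4, 498 bp at Actb and 488 bp at the actinin gene Actn4. Of 37 interferon and antigen presentation genes 12 (32.4%, 19.6 to 48.5) had one, with 725 bp at B2m, 426 bp at H2-D1, 324 bp at H2-Q4 and 273 bp at H2-T23. The H2 class I genes are close copies of each other, so their peaks are less certain. The peaks at Tap1, which loads peptides onto MHC class I, were both shared: 235 bp with the immunoproteasome gene Psmb8 at the Tap1 end, and 229 bp with Psmb9 at its start.

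Other groups had shares with wide intervals or under the background. Of 75 respiratory chain genes 5 (6.67%) had a gene-end peak, of 61 translation factors 5 (8.20%), of 35 replication-dependent histones 3 (8.57%), of 24 clock genes 2 (8.33%, Nr1d1 and Per1) and of 39 Hox genes 2 (5.13%), Hoxb6 (574 bp) and Hoxa7 (363 bp). The intervals of these 5 lists include 3.74%, as do those of the cornified envelope, keratin, Notch and nuclear receptor lists above. Of 54 cell cycle and replication genes 2 had one, E2f2 (303 bp) and E2f4 (238 bp), of 33 glycolysis and hypoxia genes 1, Txnip (214 bp), and of 27 cholesterol synthesis genes 0. Of 53 genes of the UTX, COMPASS-like, Polycomb and BAF complexes 4 (7.55%, 2.97 to 17.9) had one: Pagr1a (243 bp), Smarce1 (211 bp), Brd7 (199 bp) and Rbbp5 (199 bp). Kdm6a had no gene-end peak. By symbol, 10 of 367 Zfp genes (2.72%), 9 of 375 solute carrier genes (2.40%), 17 of 1748 predicted genes named Gm or Rik (0.973%), and 0 of 1110 olfactory receptor genes and 0 of 355 vomeronasal receptor genes had a gene-end peak. Of 238 genes named Tmem 15 (6.30%, 3.86 to 10.1) had one, a share above the background.

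Promoters with a peak at the start were richer in CpG than others. A promoter window here is 250 bases before to 50 after the start, and a window with at least 50% GC and an observed over expected CpG of at least 0.6 is called CpG-rich. Of the 650 genes with a start peak, 446 (68.6%, 64.9 to 72.1) were CpG-rich, against 45.8% (45.0 to 46.5) of all 17492 genes. The share was 72.4% (66.1 to 78.0) for genes with a shared start peak and 66.7% (62.2 to 71.0) for those with one-sided start peaks only, and these intervals overlap. The median observed over expected CpG was 0.804 in genes with a start peak and 0.577 over all genes. The share of genes with a start peak was 0.776% where this ratio was under 0.2 and 8.12% where it was 1 or more. The rise was not even, with 4.1% from 0.4 to 0.6 and 4.16% from 0.6 to 0.8. Genes silent in epidermis were not set apart, so CpG content and gene activity cannot be told apart here. Of the 49 genes whose start itself lay under a peak, 51.0% (37.5 to 64.4) were CpG-rich.

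**Figure D4:**
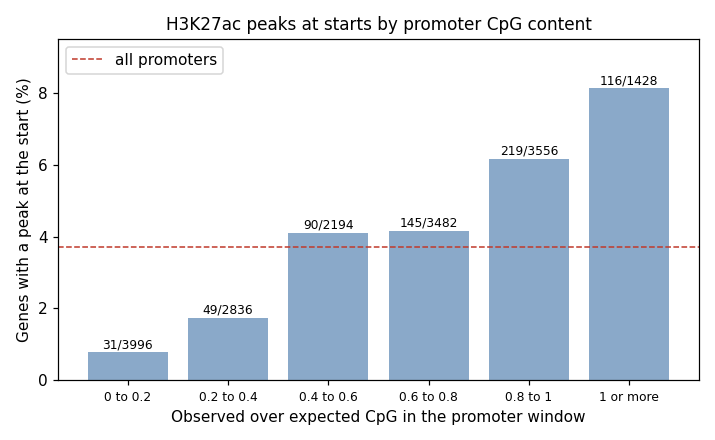
Percent of genes with a control H3K27ac peak within 1 kb of the start, by the observed over expected CpG ratio of the promoter window; the numbers over the bars give genes with a start peak over all genes in the bin. The share is 0.776% in the lowest bin and 8.12% in the highest, with a dashed line at the 3.72% of all promoters.

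The widest start peaks at promoters that were not CpG-rich lay at Skint1 (observed over expected CpG 0), Jup (0.528) and Nr1d1 (0.404). Next came the kallikrein gene Klk11 (0.159, peak of 771 bp), the vesicle coat gene Sar1b (0.542, 698 bp), S100a11 (0.527, 643 bp) and the receptor kinase gene Mst1r (0.306, 632 bp). Cdcp1 (0.581, 623 bp), Abca12 (0.308, 605 bp) and Stat6 (0.324, 596 bp) followed. Rpl4 and Fen1, with shared peaks of 783 and 744 bp, fell short of the definition only in GC content, at 40.7% and 45.3%.

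Short motifs were counted on both strands of the window. The ETS site (CCGGAAG) occurred in 22.9% (19.9 to 26.3) of promoters with a start peak, against 11.9% (11.4 to 12.4) of all promoters. It occurred in 30.4% (24.6 to 36.8) of promoters with a shared peak and 19.3% (15.8 to 23.2) of those with one-sided peaks only. The GC box (GGGCGG) occurred in 65.8% of promoters with a start peak and 46.3% of all. The CRE (TGACGTCA) occurred in 4.92% and 2.33% in the same order, the NRF1 site (CGCATGCG) in 4.77% and 2.55%, the YY1 site (ATGGCGG) in 9.85% and 5.44% and the E-box (CACGTG) in 10.6% and 7.91%. These motifs all contain CpG, and among CpG-rich promoters the GC box had the same share, 76.7% with a start peak and 76.8% of all, while the ETS site stood at 27.8% and 20.2%, the CRE at 6.73% and 3.89%, the NRF1 site at 6.28% and 4.79%, the YY1 site at 12.8% and 9.66% and the E-box at 12.6% and 11.7%. The genes of a head-to-head pair have overlapping windows, so that 1 motif can be counted for both.

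Of the other motifs, the TATA box (TATAAA) occurred in 9.54% of promoters with a start peak and 13.3% of all, the CCAAT box (CCAAT) in 35.4% and 39.2%, and the AP-1 site, or TRE (TGANTCA), in 7.08% and 7.03%. Among CpG-rich promoters the direction for the TATA box turned, with 7.17% and 4.81%, while the CCAAT box stood at 34.5% and 37.4% and the TRE at 5.38% and 3.17%. The TEAD site (CATTCC) occurred in 12.6% and 13.5%, the heat shock element (GAANNTTC) in 6.77% and 7.35%, and the GRHL site (AACCGGTT), which does contain CpG, in 0.154% and 0.183%. A match is a run of letters in a 300-base window, not a bound site.

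**Figure D5:**
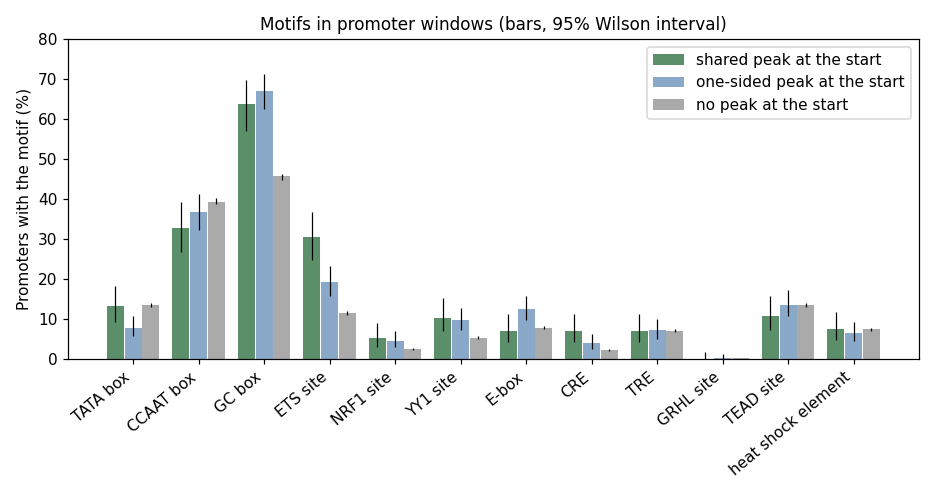
Percent of promoter windows with each of 12 motifs for genes with a shared start peak (green), with one-sided start peaks only (blue) and with no start peak (grey), with 95% Wilson intervals. The ETS site stands at 30.4%, 19.3% and 11.5% in these 3 sets, and the GC box is lower in the promoters without a start peak.

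None of the 773 gene-end peaks overlapped or lay within 1 kb of a peak of any of the other lists, which allows a share of up to 0.388% for each list. Of the 1366 other control H3K27ac peaks, 1 overlapped a Utx-deleted H3K27ac peak, 4 a control UTX peak and 2 a Utx-deleted UTX peak. Within 1 kb these counts were 1, 6 and 2. The lists differed in length, with 48 Utx-deleted H3K27ac peaks, 547 control UTX peaks and 213 Utx-deleted UTX peaks, of which 208 were placed, and their depth is unknown, so that no change at these promoters can be read from their absence in a list.

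The other lists had a smaller share of peaks at gene ends than the control H3K27ac list. Only 3.74% of all genes had a control H3K27ac peak at an end. Few or no common genes would therefore be found for lists this short in any case, and the counts below are given as values only. The Utx-deleted H3K27ac list had 7 of 48 peaks (14.6%, interval 7.25 to 27.2) at gene ends, next to Gm32584, Zfp534, Zfp978, Zfp984, Zfp985 and Zfp990, and none of these genes had a control H3K27ac peak at an end. The Utx-deleted UTX list had 18 of 208 placed peaks (8.65%, 5.54 to 13.3) there, at 13 genes, again with none among the 818. The control UTX list had 17 of 547 (3.11%, 1.95 to 4.92) there, at 19 genes, of which Deaf1 and Lars2 also had a control H3K27ac peak at an end. Lars2 encodes the mitochondrial leucyl-tRNA synthetase. The Zfp genes named here lie in a cluster of near-copies, and placement of reads among them is uncertain.

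Chromosomes differed in how many genes were marked. On chromosome 11, 126 of 1609 genes (7.83%) had a gene-end peak and on chromosome 19, 55 of 705 (7.80%), whereas on chromosome 14 it was 11 of 851 (1.29%). On chromosome X, 4 of 966 genes (0.414%) had one, and all 5 peaks of the X were gene-end peaks. They lay at Kdm5c (378 bp), a histone H3K4 demethylase gene, at Hcfc1 (421 bp), at the RNA helicase gene Ddx3x (203 bp) and at the end of Mid1 (238 and 230 bp). Kdm5c and Ddx3x are known to be expressed from both X chromosomes in female mice, and Mid1 spans the pseudoautosomal boundary in laboratory strains. Whether these traits bear on the peaks was not tested.

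The 1 kb limit fell in a gradual slope of distances. Just inside it lay the peaks nearest to Gm52006 (1000 bp), Usp24 (999 bp) and Zdhhc18 (997 bp), and just outside those nearest to A630095N17Rik (1002 bp), Etf1 (1015 bp) and Zswim4 (1019 bp), with widths from 199 to 465 bp.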

How the data were processed

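Peaks are from chromatin immunoprecipitation of mouse epidermis. Per the file headers, the authors called peaks with MACS2 on the merged data of each group. The deposited lists hold another kind of value than counts, namely a chromosome, a start and an end, with no height, score or depth, so precision beyond counting cannot be given. The submitters' processing notes name Bowtie2, bedtools, deepTools and FastQC, without versions, and both mm10/GRCm38 and mm39/GRCm39. Positions were read as GRCm38, on which peaks flank gene starts, and are given 1-based.

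From these lists, peaks within 1 kb of a protein-coding gene end of RefSeq on GRCm38.p6 were taken by nearest edge. Strand and sequence came from RefSeq promoters, of which 10583 of 17492 begin exactly at the annotated gene start; the others use the nearest transcript start. Overlap meant at least 1 bp. Shares have 95% Wilson intervals; a count of 0 over members or peaks is limited by 3 counts. No test was made, since lists have no replicates. The assignment was tested on simulated data, where 400 of 400 planted peaks were treated correctly. For short genes a hit passed at any planted distance, so the test was looser there. It did not cover the calls of start or end and of shared or one-sided.

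Members, gene lists and motifs were chosen with earlier results of these data known. Named genes are those of the 12 widest gene-end and shared peaks, of several peaks, of peaks at both ends, of overlap with other lists, next to the distance limit, and up to 4 by width per list; other names were chosen after values were seen. A few genes chosen this way are not reported here. Inputs were not analysed here. Alternatives were other distances, wider peaks, merged peaks, fewer genes and other overlap rules. The software was matplotlib 3.10.9, scipy 1.17.1, pandas 2.3.3 and numpy 2.4.6 under Python 3.11.15.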

Additional observations from a re-analysis of the deposited data

How the results depend on the processing

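Of 45 alternative values of counts, widths, overlaps and promoter shares, 35 stayed within 1.5 times the value given or within its interval. With overlap only, 63 peaks remained, 4 of them shared, at 66 genes, 11 lists stood above the background, and gene-end peaks were 27 bp wider in the median than the others, as wide peaks reach an end more often. With peaks at or above the median width of 273 bp there were 386 gene-end peaks, 73 of them shared, at 420 genes, by construction of fewer peaks. Within 500 bp 97 peaks were shared, because the second gene must then also lie closer. Measured from the peak centre, a choice made after seeing the data, 705 peaks lay within 1 kb. Of genes whose start lay under a peak 51.0% had a CpG-rich promoter, and the cause was not tested. Over the 32 gene lists, 39 of 256 alternative shares left the Wilson interval, 24 of them with overlap only. No gene-end peak lay within 1 kb of a Utx-deleted H3K27ac or control UTX peak. The other overlap rule was stricter than the main one and could only give 0 again, although its values count among the 35. Lists without replicates, heights or depths set the limit: no library could be left out and no stricter threshold tried. No paired analysis was possible because the libraries of a group were merged before peaks were called.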

Other observations

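Further gene families were grouped after their values were seen and are given as values only. Of 11 Skint genes, which lie together on chromosome 4 and are close copies, 7 had a gene-end control H3K27ac peak, with 926 and 912 bp at Skint1, 509 bp at Skint3 and 503 and 423 bp at Skint7. Of 39 JAK-STAT cytokine signalling genes 11 (28.2%, 16.5 to 43.8) had one and 0 of these was shared, with 596 bp at Stat6, 550 bp at the interleukin 6 receptor gene Il6ra, 448 bp at its signalling partner Il6st and 300 bp at Osmr. Of 11 genes of the COPII coat, which forms vesicles at the endoplasmic reticulum, 4 had one: Sar1b (698 bp), Sec24c (339 bp), Sec23b (261 bp) and Sec24a (245 bp). Of 26 vacuolar ATPase subunits 4 had one, of 23 TFIID subunits 4, of 17 tubulin genes 4, of 50 ubiquitin-specific proteases 6 and of 59 Rab genes 4 (6.78%).

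Small RNA genes lay near a few of these peaks. The peak at Nsrp1 overlapped Mir423, and those at Rps3 lay near Snord15a and at Tmem107 near Snord118. Within 1 kb of a snoRNA gene lay 5 of 773 gene-end peaks (0.647%, 0.277 to 1.51) and 1 of 1366 other control peaks (0.0732%, 0.0129 to 0.414), and for miRNA genes 5 and 9. SnoRNAs are often encoded in introns of ribosomal protein genes, which are themselves among the marked genes. Of the genes at these peaks, Rps3, Rpl3 and Rpl13 are in the ribosomal protein list, and Rack1 and Tmem107 are not. Whether this bears on the difference was not tested.

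Inside protein-coding genes, 149 of the 1366 other control peaks (10.9%, 9.36 to 12.7) lay within 1 kb of an annotated transcript start that is not the gene's outer end. Such peaks are near promoters and are left out by a rule on gene ends.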
